A study of Mus musculus with 12 samples.

Results

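The genes of the major histocompatibility complex (MHC) and of antigen presentation were examined in the mouse pituitary gland. Members were all genes whose name on the array begins with H2-, the prefix of the mouse MHC, together with B2m, Tap1, Tap2, Tapbp, Psmb8, Psmb9, Psmb10, Cd74, Ciita and Nlrc5. This rule gave 51 genes on 67 probes among 30118 genes on 39429 probes. Of these, 37 belong to the class I pathway and 12 to the class II pathway. The other 2, H2-Ke2 and H2-Ke6, carry the prefix for their place on the chromosome and encode a prefoldin subunit and a steroid dehydrogenase. A probe was kept when its signal was well above background, as the scanner software marks it, in at least 4 of the 12 samples, and 41 members passed: 29 of class I, 10 of class II and both others.

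MHC class I molecules sit on nearly all nucleated cells and show peptides cut from the cell's own proteins. The immunoproteasome (Psmb8, Psmb9, Psmb10) cuts the peptides, the Tap1 and Tap2 transporter carries them into the endoplasmic reticulum, tapasin (Tapbp) helps to load them, and the heavy chain (such as H2-K1 or H2-D1) pairs with B2m. Class II molecules are made mainly by professional antigen-presenting cells, take up peptides from engulfed proteins with help from the invariant chain (Cd74) and H2-DM, and are held back by H2-O. Nlrc5 is the main transcriptional activator of class I genes and Ciita that of class II genes, and interferon gamma is the best known inducer of both pathways. In the pituitary, resident macrophages and dendritic cells are known to carry class II molecules.

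The samples were whole pituitary glands of female C57BL/6J mice of 2 months. The strain carries the b haplotype of the MHC, which makes no H2-E alpha chain. Each diet group had 4 animals: controls on a normal diet, an early life group fed a diet deficient in vitamin D during early life only, and a peripubertal group deprived around puberty only. RNA of 2 animals of the same group, one dyed Cy3 and the other Cy5, shared each of the 6 arrays, so that animals 1 and 2 of a group lay on one array and animals 3 and 4 on the other. Each gland is a mixture of cells, and fewer cells of a type cannot be told apart from less RNA per cell.

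Some facts of the files bear on every value below. The authors' value table and the scanner files disagree on the deficient groups: all 8 deficient columns of the table equal, in 100% of features, channels that the scanner files place in the other deficient group, and the 4 control columns match no scanned channel. Groups are named here as the scanner files are filed. Under the table's naming early life and peripubertal would change places, and which naming is right was not settled. Both control arrays came from 1 slide (slide 1, scan 1) and all 4 deficient arrays from another, so diet and slide cannot be told apart against the controls. The early life and peripubertal groups shared a slide. Slides were told apart here by the recorded scan date. Between 50.6% and 67.2% of spots were well above background in a sample, and 6.54% to 7.34% of spots were marked as outliers on the early life arrays, 3.85% to 5.08% on the peripubertal and 1.68% to 1.90% on the control arrays. Marked spots were left out, which removed between 0 and 8 of the 41 members from an array. All 7 pituitary hormone genes tested passed the background filter.

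The class I pathway was expressed in large part. Of its 37 genes, 29 passed the filter. The 8 others are H2-M and H2-T genes, both non-classical series. Values are given as log2 intensity after normalization, with 1 unit a factor of 2 in brightness, and are compared between samples within a gene only. H2-K1, a classical heavy chain, read 14.02, 14.41, 14.08 and 13.90 in controls 1 to 4. It read 14.45, 14.22, 13.89 and 13.96 in the early life animals, and 14.02, 14.03, 14.30 and 14.91 in the peripubertal animals. The 3 groups overlapped, and the highest value was that of peripubertal animal 4. H2-D1, the other classical heavy chain, ranged from 13.76 to 14.18 in the controls and was measured on 1 array of each deficient group. It read 13.61 and 13.52 in early life animals 3 and 4, both below all controls, and 13.95 and 13.67 in peripubertal animals 1 and 2. With outlier-marked spots kept, early life animals 1 and 2 read 13.77 and 13.33, the first of them inside the control range, and peripubertal animals 3 and 4 read 14.17 and 14.50.

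Upstream sequences of these genes are shown because the letters shared between them are those through which class I genes are known to respond to NF-kappa B, interferon-regulated factors and Nlrc5. RefSeq promoter windows (GRCm38.p6) matched 37 of the 51 members, 27 of class I and 8 of class II among them, and each was searched on both strands in the 250 bases before the start. The motifs were GGGGATTCCC (kappa B), GAANNGAAAC (an interferon-stimulated response element), the X box letters GNAACNGATG and TGATGA, which can overlap, and GATTGG, the core of the Y box. The first 2 were read from the H2-K1 window and the third from that of H2-DMb1, which match by construction. Capitals mark the matches, and coordinates are those of the printed stretch. H2-K1 is from chr17:34000334-34000463 on the minus strand, H2-D1 from chr17:35262918-35263051 on the plus strand and B2m from chr2:122147628-122147643 on the plus strand.
H2-K1: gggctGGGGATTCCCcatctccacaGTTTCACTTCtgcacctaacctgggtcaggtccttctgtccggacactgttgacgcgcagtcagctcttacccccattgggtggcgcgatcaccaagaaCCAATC
H2-D1: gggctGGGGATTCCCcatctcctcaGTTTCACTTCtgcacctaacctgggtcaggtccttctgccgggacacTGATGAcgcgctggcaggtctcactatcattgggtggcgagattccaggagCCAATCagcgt
B2m: gtccgGATTGGctgtg
The kappa B letters stood in 4 of the 27 class I genes with a window (H2-K1, H2-D1, H2-Q6 and H2-Q7) and in 0.0999% of all 27025 genes with one. The response element letters stood in 8 of 27 against 1.68% of all genes, and the Y box core in 18 of 27 against 16.6%. Of the X box letters, GNAACNGATG stood in 0 of 27 against 0.807% of all genes, and TGATGA in 10 of 27 against 12%. These matches describe the letters and say nothing of binding in these glands.

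B2m, the light chain common to all class I molecules, was between 13.36 and 13.96 in the controls and between 13.52 and 14.53 in the early life group. It was measured in peripubertal animals 3 and 4 only, at 14.31 and 14.89. Both exceeded every control, and the early life group overlapped the controls. With outlier-marked spots kept, peripubertal animals 1 and 2 read 13.64 and 13.61, inside the control range.

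Of the 6 genes that prepare peptides, Tap1, Psmb8 and Psmb9 were highest in peripubertal animal 4, by 0.49 or more on the log2 scale over the next sample, while Tap2 and Tapbp were not and Psmb10 barely was. Tap1, one subunit of the peptide transporter, read 7.80, 7.71, 7.49 and 7.77 in the controls and 7.18, 6.99, 7.46 and 7.23 in the early life animals. It read 7.90, 7.88, 7.74 and 8.99 in the peripubertal animals. All 4 early life values lay below all controls, and peripubertal animal 4 stood 1.09 above the next highest of the 12 samples. Tap1 was well above background in only 1 early life animal.

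Psmb8, an immunoproteasome subunit, ranged from 10.35 to 10.79 in the controls, from 10.35 to 11.37 in the early life group and reached 10.45, 10.33, 11.02 and 11.86 in the peripubertal animals. Psmb9, its partner subunit, read 9.86, 10.06, 9.70 and 10.31 in the controls and 10.02 and 10.07 in the 2 early life animals measured. It read 9.91, 10.08, 10.42 and 11.62 in the peripubertal animals. In both genes the groups overlapped and peripubertal animal 4 was the highest sample, 2.37-fold (Psmb8) and 3.12-fold (Psmb9) above the control mean. Psmb10, the third subunit, was at 1.37-fold in this animal, 0.0082 on the log2 scale above the next highest sample.

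Nlrc5, the class I activator, read 7.86, 7.82, 7.56 and 7.79 in the controls and 7.56, 7.76, 7.93 and 7.63 in the early life animals. It read 7.47, 7.93, 8.09 and 9.32 in the peripubertal animals. Peripubertal animals 2 and 3 lay above every control and early life animal, though animal 2 only narrowly, and animal 1 lay below them all. The fourth animal was farthest from the rest, 2.95-fold above the control mean. Ciita, the class II activator, was 1.08-fold above its control mean in the same animal, where its 4 controls themselves ranged from 7.24 to 8.59. Tap2 and Tapbp were at 1.00-fold and 1.04-fold there.

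Tap1 and Psmb9 lie head to head, and the stretch between their RefSeq starts is shown because both genes stood highest in the same animal. It runs from chr17:34187331-34187555 on the plus strand of GRCm38.p6, is 225 bases long and holds 1 match to the motifs searched, a Y box core on the minus strand.
Tap1-Psmb9: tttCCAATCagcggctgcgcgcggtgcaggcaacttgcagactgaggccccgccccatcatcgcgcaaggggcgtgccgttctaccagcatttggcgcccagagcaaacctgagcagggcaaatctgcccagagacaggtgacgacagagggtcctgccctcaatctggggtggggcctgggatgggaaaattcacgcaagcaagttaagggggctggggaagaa

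**Figure D1:**
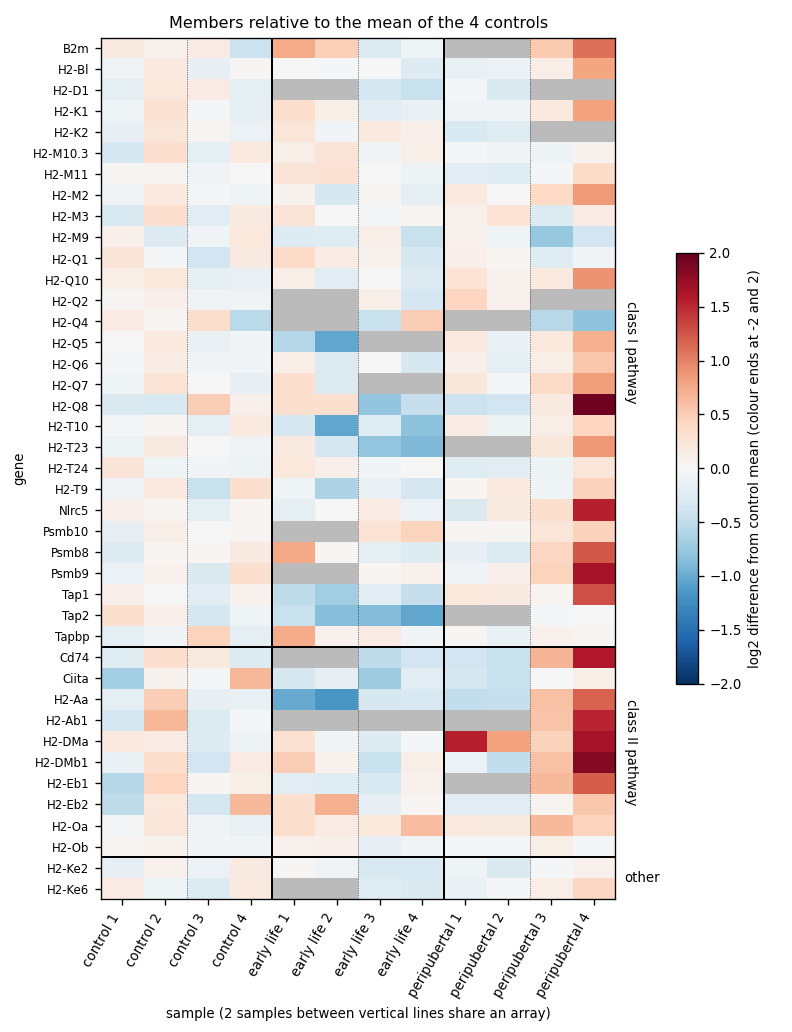
Log2 difference of each of the 41 kept members (rows) from the mean of the 4 controls in each of the 12 samples (columns), with class I above, class II below and grey for values left out. Peripubertal animal 4 is the column with the most red, and H2-DMa is red in all 4 peripubertal animals.

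Counting over the 26 members measured in all 12 samples, peripubertal animal 4 was the highest sample in 15, or 57.7%. This was so for 12 of 18 class I genes and 3 of 7 class II genes. Over all 14380 genes with 12 values it was the highest sample in 5.07%. No other sample was highest in more than 3 of the 26 members. The count describes 1 animal and has no replicate. Of the non-classical class I genes, H2-Q8 (chosen after its values were seen) was farthest from the rest, at 10.68 in this animal against 7.94 to 9.22 in the other 11. H2-T23, which encodes Qa-1, reached 14.38 there and 13.75 in peripubertal animal 3, against 13.42 to 13.70 in the controls and 12.64 to 13.70 in the early life group. Its spots in peripubertal animals 1 and 2 were marked as outliers, and with marked spots kept these read 13.58 and 13.40. The class I members H2-M3, H2-Q1 and H2-M9 did not share the pattern, at 1.12-fold, 0.962-fold and 0.771-fold of the control mean, and H2-Q4 was lower, at 0.573-fold.

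Probes spotted several times on the array show how far this reading depends on single spots. The Tap1 probe (mm9 chr17:34330854-34330913, plus strand) has 10 spots, and in all 10 the highest of the 12 samples was peripubertal animal 4. The SD between spots of a sample had a median of 0.17, while the SD between the 12 sample means was 0.51. For H2-K1 and for H2-M2, a non-classical gene, 6 of 6 spots measured in that animal were also highest there, though the spot SD of H2-K1 (median 0.30) was as large as its spread between samples (0.30). Second probes of H2-K1, H2-K2, H2-Q2 and H2-Ab1, not used for the gene's value, each had their highest value in the same animal too, at 14.03, 14.31, 12.36 and 14.40. The probe used for H2-K2 had no unmarked spot in that animal. With marked spots kept it read 14.10 there and was highest in early life animal 1, at 14.12. Spots of a sample share its RNA, dye and array, so these are checks of the measurement and not of the group.

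**Figure D2:**
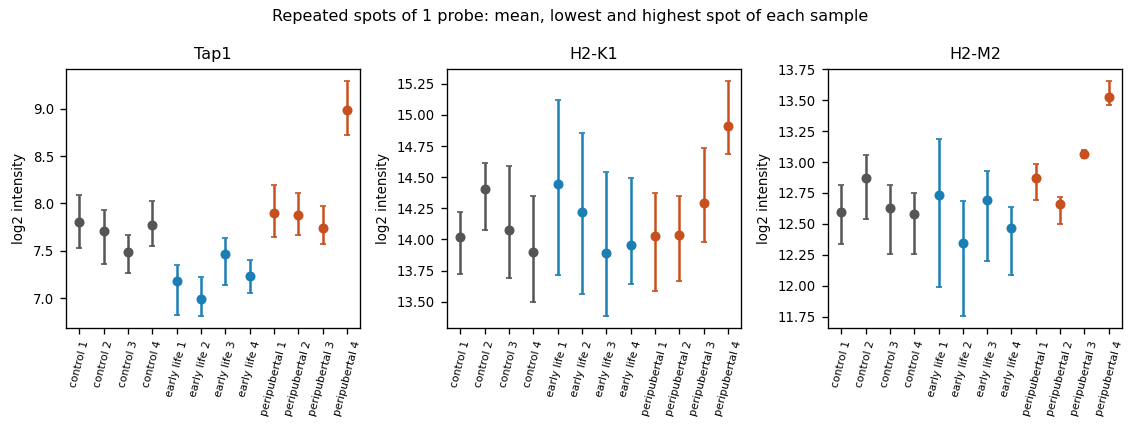
Log2 intensity of the probes of Tap1, H2-K1 and H2-M2 that are spotted 10 times, for each sample, as the mean (point) with the lowest and highest spot (bar). The lowest Tap1 spot of peripubertal animal 4 lies above the highest Tap1 spot of any other sample.

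Class II genes were also expressed. Of 12 genes, 10 passed the filter, and the 2 that did not were H2-DMb2 and H2-Ea-ps, the latter the gene of the H2-E alpha chain. Promoter stretches of 3 class II genes are shown for the conserved X and Y boxes on which Ciita is known to act. H2-Eb1 is from chr17:34305771-34305842 and H2-DMb1 from chr17:34153092-34153139, both on the plus strand, and H2-Aa is from chr17:34287862-34287897 on the minus strand of GRCm38.p6.
H2-Eb1: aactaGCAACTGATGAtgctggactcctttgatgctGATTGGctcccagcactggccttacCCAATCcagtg
H2-DMb1: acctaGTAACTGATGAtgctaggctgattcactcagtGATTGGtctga
H2-Aa: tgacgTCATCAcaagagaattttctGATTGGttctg
A Y box core stood in 8 of 8 class II genes with a window against 16.6% of all genes, the X box letters GNAACNGATG in 3 of 8 (H2-Eb1, H2-DMb1 and H2-Eb2) against 0.807%, and TGATGA in 3 of 8 against 12%. The kappa B and response element letters stood in 0 of the 8.

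H2-DMa, one chain of the exchange factor that frees the class II groove, was the class II gene whose peripubertal animals were all apart. It read 8.87, 8.85, 8.43 and 8.58 in the controls and 8.99, 8.62, 8.43 and 8.65 in the early life group. It read 10.23, 9.49, 9.14 and 10.34 in the peripubertal animals. The 4 peripubertal values exceeded all 8 others, and peripubertal animal 1 nearly equalled animal 4, unlike in the genes above. The gene has a single spot, and the 9 dim spots within 2 rows and columns of it were, relative to their mean over samples, raised by 0.61 and 0.44 in peripubertal animals 1 and 2 and by 0.40 in early life animal 1, against -0.12 and -0.20 in peripubertal animals 3 and 4. The part of this local brightness in the H2-DMa values was not tested. The partner chain, H2-DMb1, read 9.69, 9.32, 10.40 and 11.65 in the peripubertal animals against 9.42 to 10.16 in the controls and 9.35 to 10.29 in the early life group, so that only animals 3 and 4 were above the other groups.

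The class II chains themselves split the peripubertal group by array. H2-Aa, the H2-A alpha chain, read 10.10, 10.77, 10.13 and 10.13 in the controls and 9.28, 9.12, 9.96 and 9.98 in the early life animals. It read 9.79, 9.82, 10.86 and 11.46 in the peripubertal animals. All early life animals and peripubertal animals 1 and 2 were below all controls, and peripubertal animals 3 and 4 above them. Cd74, the invariant chain, showed the same split by array in the peripubertal group, at 13.12, 13.05, 14.18 and 15.10, with controls from 13.22 to 13.83 and the 2 early life animals measured at 12.99 and 13.12.

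H2-Eb1, the H2-E beta chain, read 12.28, 13.28, 12.86 and 12.96 in the controls and 12.62, 12.60, 12.54 and 12.93 in the early life animals. In the peripubertal group only animals 3 and 4 had unmarked spots, at 13.50 and 14.06. Both exceeded all other samples, but with marked spots kept animals 1 and 2 read 12.52 and 12.51, within the control range.

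H2-Ab1, the H2-A beta chain, read 12.51, 13.53, 12.60 and 12.83 in the controls and 13.44 and 14.39 in peripubertal animals 3 and 4, with no unmarked spot in the early life group. Its second probe, whose letters are those of the first in 50 of 51 overlapping bases, gave 12.34 and 12.95 in early life animals 3 and 4 and 13.49 and 14.40 in peripubertal animals 3 and 4. With marked spots kept, H2-Ab1 read 12.36 and 12.47 in peripubertal animals 1 and 2 and 11.95 to 12.64 in the early life group. Control animal 2 was the highest control in H2-Aa, H2-Ab1, H2-Eb1 and Cd74. Its median over the macrophage markers was the highest of the controls too, at 0.46. H2-Oa and H2-Ob, the chains of the H2-DM inhibitor, ranged over all samples from 7.41 to 8.20 and from 6.94 to 7.22, and H2-Eb2 from 8.44 to 9.64.

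**Figure D3:**
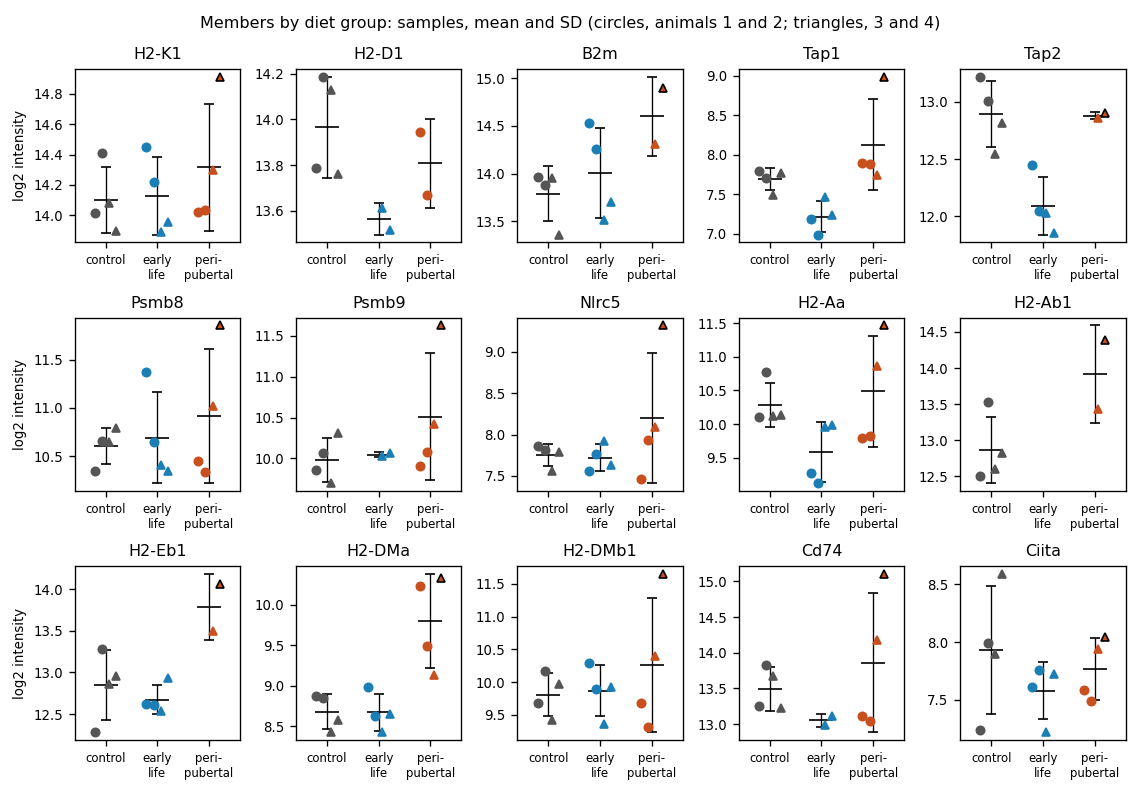
Log2 intensity of 15 members by diet group. Each point is an animal (circles, animals 1 and 2; triangles, animals 3 and 4; peripubertal animal 4 outlined in black), and lines give the group mean and SD. H2-DMa separates all 4 peripubertal animals from the rest, Tap2 all 4 early life animals from the controls, and in Nlrc5, Tap1 and Psmb9 the outlined animal stands well above all others.

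Peripubertal deficiency was first compared with the control diet. No member passed the test: by limma with Benjamini-Hochberg adjustment over all genes, 0 of 41 members were called at an adjusted p of 0.05, as against 0.0213% of the 18767 genes tested. At an unadjusted p under 0.05 there were 3 of 41, all higher and all of class II, against 4.69% of all genes. They were H2-Eb1, at 0.93 on the log2 scale (SE 0.27, limma adjusted p = 0.764), H2-DMa, at 1.12 (SE 0.34, limma adjusted p = 0.770), and H2-Ab1, at 1.05 (SE 0.28, limma adjusted p = 0.787). H2-Eb1 and H2-Ab1 rest on peripubertal animals 3 and 4, and with outlier-marked spots kept the group means of the same probes differed by 0.30 in each. The 3 class I members of smallest p were B2m at 0.81 (SE 0.37), H2-M2 at 0.36 (SE 0.21) and H2-Q10 at 0.36 (SE 0.23), each with a limma adjusted p of 1.00.

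More members were higher than lower in the peripubertal group. In class II, 9 of 10 genes were higher in the peripubertal group, with a median difference of 0.37, and in class I 20 of 29, with a median of 0.16, while the median over all genes was 0.01. Without peripubertal animal 4 the class II median was 0.05 with 7 of 10 higher, and the class I median 0.03 with 16 of 29 higher. Without the array of animals 3 and 4 the class II median was -0.26, with 2 of 8 higher, and without that of animals 1 and 2 it was 0.91. Groups did not overlap for 4 members that were higher and 2 that were lower, where 3.71% and 5.54% of all genes did so. Of these 6, H2-DMa was the one measured in all 4 peripubertal animals. With outlier-marked spots kept, H2-DMa (higher) and H2-Q4 (lower) still did not overlap the controls, and the other 4 did. The group means then differed by 1.12 for H2-DMa and by -1.21 for H2-Q4. H2-Q4 read 12.74, 12.80, 13.95 and 13.71 in peripubertal animals 1 to 4, against 13.98 to 14.87 in the controls.

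The comparison of early life deficiency with the control diet gave no call either, with 0 of 40 members at an adjusted p of 0.05 by limma, against 0.0979% of 18383 genes tested. At an unadjusted p under 0.05 there were 3 of 40, all lower and all of class I, against 16.2% of all genes. Tap2, the second transporter subunit (probe at mm9 chr17:34353116-34353175, plus strand), read 13.220, 13.004, 12.545 and 12.816 in the controls and 12.44, 12.05, 12.03 and 11.85 in the early life group. It read 12.86 and 12.90 in peripubertal animals 3 and 4. All early life values lay below all others, and the difference from control was -0.80 (SE 0.20, limma adjusted p = 0.153). Without control animal 3, which had the lowest control value, the difference was -0.94 and Tap2 was called (limma adjusted p = 0.0457). In that setting 227 of all 18366 genes tested were called, against 18 with all animals.

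H2-Q5 and H2-T10, both non-classical class I genes, came next. H2-Q5 was -0.80 (SE 0.29, limma adjusted p = 0.246), from early life animals 1 and 2 only, which read 12.54 and 12.08 against 12.97 to 13.31 in the controls. With outlier-marked spots kept, early life animals 3 and 4 read 12.973 and 12.69, and the difference of H2-Q5 was -0.55. The lowest control then read 12.975, barely above early life animal 3. H2-T10 was -0.61 (SE 0.24, limma adjusted p = 0.263), at 10.34, 9.63, 10.44 and 9.87 in the early life group against 10.48 to 10.88 in the controls, with no overlap. In class II the smallest p values belonged to H2-Oa at 0.34 (SE 0.18), H2-Aa at -0.70 (SE 0.38) and Ciita at -0.35 (SE 0.25).

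Both classes held genes on either side of the control level. In class I, 14 genes were higher and 15 lower in the early life group, with a median of -0.03 beside 0.03 over all genes. In class II 3 were higher and 6 lower. The middle class II difference is that of H2-Ob, which was well above background in no early life animal, so no median is given. Groups did not overlap for 1 member that was higher (Psmb10, from 2 early life animals) and 7 that were lower, where 7.96% and 7.15% of all genes did so. The 7 were H2-D1, H2-Q5, H2-T10, Tap1, Tap2, Cd74 and H2-Aa, of which H2-D1, H2-Q5 and Cd74 were measured in 2 early life animals. With outlier-marked spots kept, 5 of these 8 still did not overlap, and Psmb10, H2-D1 and Tap1 did. H2-M9, like H2-Ob, was well above background in no early life animal and has only a bound there.

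The direct comparison of the deficient groups lies within 1 slide. By limma, 0 of 40 members were called, against 0.132% of 18238 genes tested, and at an unadjusted p under 0.05 there were 9 of 40, all lower in early life, against 19.4% of all genes. The class II members of smallest p were H2-Eb1 at -1.11 (SE 0.27, limma adjusted p = 0.115), H2-DMa at -1.13 (SE 0.34, limma adjusted p = 0.140) and H2-Aa at -0.90 (SE 0.38, limma adjusted p = 0.234). H2-Eb1 rests on peripubertal animals 3 and 4, and with outlier-marked spots kept its difference was -0.48. In class I they were H2-Q5 at -1.05 (SE 0.29, limma adjusted p = 0.131), H2-T10 at -0.76 (SE 0.24, limma adjusted p = 0.154) and Tap2 at -0.79 (SE 0.25, limma adjusted p = 0.155). H2-Q5 rests on early life animals 1 and 2, and with outlier-marked spots kept its difference was -0.79. This comparison shares the early life or the peripubertal animals with those above and is not independent of them.

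In class II 8 of 9 genes were lower in the early life group (median -0.39), and in class I 19 of 29 (median -0.26), beside 0.03 over all genes. Groups did not overlap for 2 members that were higher and 9 that were lower, where 12.4% and 9.95% of all genes did so. With outlier-marked spots kept, 6 of these 11 still did not overlap, all lower in early life. Without peripubertal animal 4 the medians were -0.19 and -0.10. Without the array of peripubertal animals 3 and 4 they were 0.027 and -0.0016. With the array of early life animals 3 and 4 left out, 2 members were called, H2-Eb1 at -1.17 (limma adjusted p = 0.0398) and H2-Q5 at -1.05 (limma adjusted p = 0.0290), where 2376 of all genes were called, against 24 with all arrays. H2-Q5 had no unmarked spot on the array left out. Under the value table's own naming of the columns, both medians have the opposite sign, at 0.40 in class II and 0.30 in class I.

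**Figure D4:**
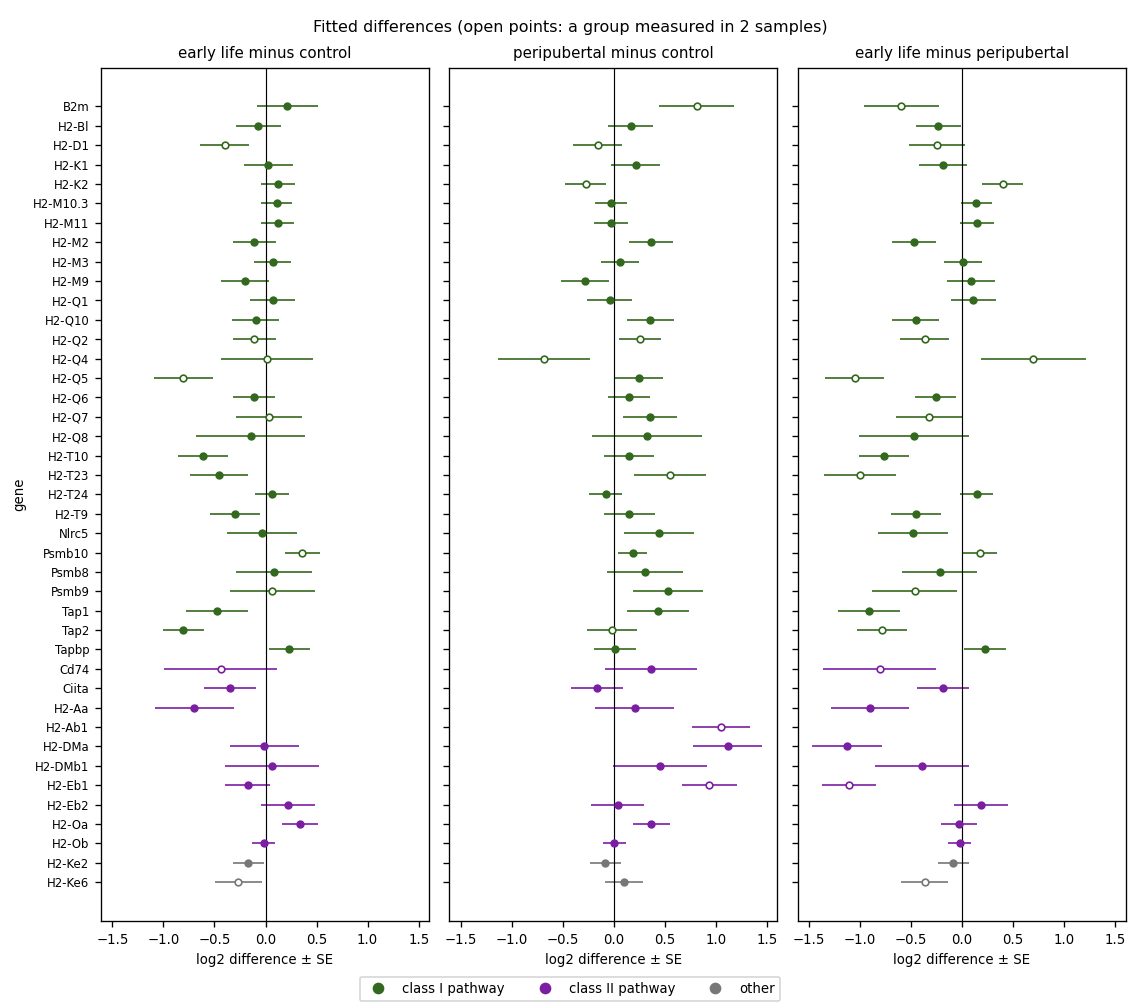
Fitted log2 differences (points) with standard errors (bars) for the 41 kept members in the 3 comparisons, class I in green, class II in purple and others in grey, and open points where a group was measured in 2 animals only. No member passed an adjusted p of 0.05, and H2-DMa, at 1.12 against control and -1.13 in the direct comparison, is the filled point farthest from 0 in both.

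Other genes of the pathway and of the cells that use it were described from lists. Antigen processing partners, which are the chaperones, proteasome activators and lysosomal proteases that serve both pathways, had 0 calls in each comparison by limma. At an unadjusted p under 0.05 they had 1 higher and 2 lower of 20 tested in the peripubertal group against control, where 4.69% of all genes did so. Their median difference from the control mean in peripubertal animal 4 was -0.01, and this animal was the highest sample in 0 of the 10 measured in all samples. Psme3, a proteasome activator subunit, was -0.57 (SE 0.20) and Cd1d1, which presents lipids, -0.67 (SE 0.29) in the peripubertal group against control, each with a limma adjusted p above 0.9. MHC gene regulators (X and Y box factors, interferon gamma signalling and its mediators) had 9 higher and 9 lower of 18 in that comparison, and Ifng itself was well above background in no sample.

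Interferon response genes, 26 tested without the members, followed peripubertal animal 4. It was the highest sample in 18 of the 24 measured in all samples, or 75%, against 5.07% of all genes, and their median difference from the control mean was 0.87 there, 0.18 in peripubertal animal 3, 0.03 and 0.05 in animals 1 and 2 and between -0.20 and 0.18 in the early life group. In the peripubertal group against control 25 of 26 were higher, with a median of 0.29 and 0 called by limma. At an unadjusted p under 0.05 there was 1, against 4.69% of all genes. Stat2, which carries type I interferon signals, read 10.15, 10.48, 10.20 and 10.66 in the peripubertal animals against 9.58 to 10.01 in the controls, at 0.55 (SE 0.22). In the early life group 12 were higher and 14 lower than in the controls, and 23 of 26 were lower than in the peripubertal group, with a median of -0.20. Gbp7, a guanylate-binding protein, read 9.77 in peripubertal animal 4 against 8.57 to 8.71 in the other 3. Whether the interferon genes and the members share a source in that animal was not tested.

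Macrophage markers, of which 17 of 20 passed the filter, were ordered differently. Their median difference from the control mean was 0.20, -0.29, 0.75 and 0.12 in peripubertal animals 1 to 4, so that animal 3, not animal 4, was highest, and it was the highest sample in 9 of the 13 genes measured in all samples. It was between -0.51 and -0.21 in the early life group and between -0.38 and 0.46 in the controls. Of the 17, 14 were higher in the peripubertal group than in the controls (median 0.24). In the early life group 15 were lower than in the controls (median -0.45), and 15 lower than in peripubertal animals (median -0.62). By limma 0 were called in each. At an unadjusted p under 0.05 there were 0, 2 and 6, against 4.69%, 16.2% and 19.4% of all genes. The 2 were 1 higher and 1 lower in early life, and the 6 were 2 higher and 4 lower. The gene of smallest p in each early life comparison went against the median. Cd14 read 11.06 to 11.54 in early life against 9.27 to 10.86 in the controls. Itgam read 15.13 and 15.47 in the 2 early life animals measured, against 14.38 to 14.61 in the peripubertal group. The class II median was 0.45 in peripubertal animal 3 and 0.53 in animal 4, and the class I median 0.10 and 0.51. Of the defining macrophage markers Cd163 was well above background in no sample. Their part in the class II values was not tested.

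Markers of the other antigen-presenting and responding cells passed the filter in part. For dendritic cells 10 of 14 passed the filter, with Xcr1, Cd209a and Ccr7 well above background in no sample, and the list's median lay between -0.13 and 0.07 in the controls, between -0.07 and 0.34 in the early life group and between -0.04 and 0.07 in the peripubertal group. For B cells 4 of 10 passed. The median of the 3 measured in all samples was 0.01 to 0.14 in the controls, 0.33 to 0.63 in the early life group and -0.23 to 0.21 in the peripubertal group, so that every early life animal was above all others. Cd79a, a chain of the B cell receptor complex (chosen after its values were seen), read 8.90, 8.83, 9.89 and 9.85 in the early life animals against 7.77 to 8.10 in the controls and 7.98 to 8.25 in the peripubertal animals. Its difference from control was 1.41, with a limma adjusted p of 0.0594. For T and NK cells 6 of 14 passed, and Cd3d, Cd3g, Cd2, Cd8a, Klrb1c, Ncr1 and Gzmb were well above background in no sample. The T and NK median was between -0.08 and 0.06 in the controls, between -0.44 and -0.13 in the early life and between -0.22 and -0.07 in the peripubertal group. Erythroid genes, which mark blood left in the gland, had medians from -1.13 to 1.33 in the controls, from -1.65 to -0.05 in the early life group and from 0.18 to 1.77 in the peripubertal group, with the lowest of these in peripubertal animal 4 and the highest in animal 3. Of 8, all were lower in early life than in the controls (median difference -1.10) and than in the peripubertal group (median -1.87). At an unadjusted p under 0.05 there were 2 and 6, against 16.2% and 19.4% of all genes. All 8 were higher in the peripubertal group than in the controls (median 0.80), with 1 at an unadjusted p under 0.05, against 4.69% of all genes. Markers of folliculostellate cells, the supporting cells of the gland, were higher in early life than in the controls in 8 of 9 (median 0.46). Of the 9, 3 stood at an unadjusted p under 0.05, against 16.2% of all genes. None of the genes in these lists was called by limma, and their part in the members' differences was not tested.

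**Figure D5:**
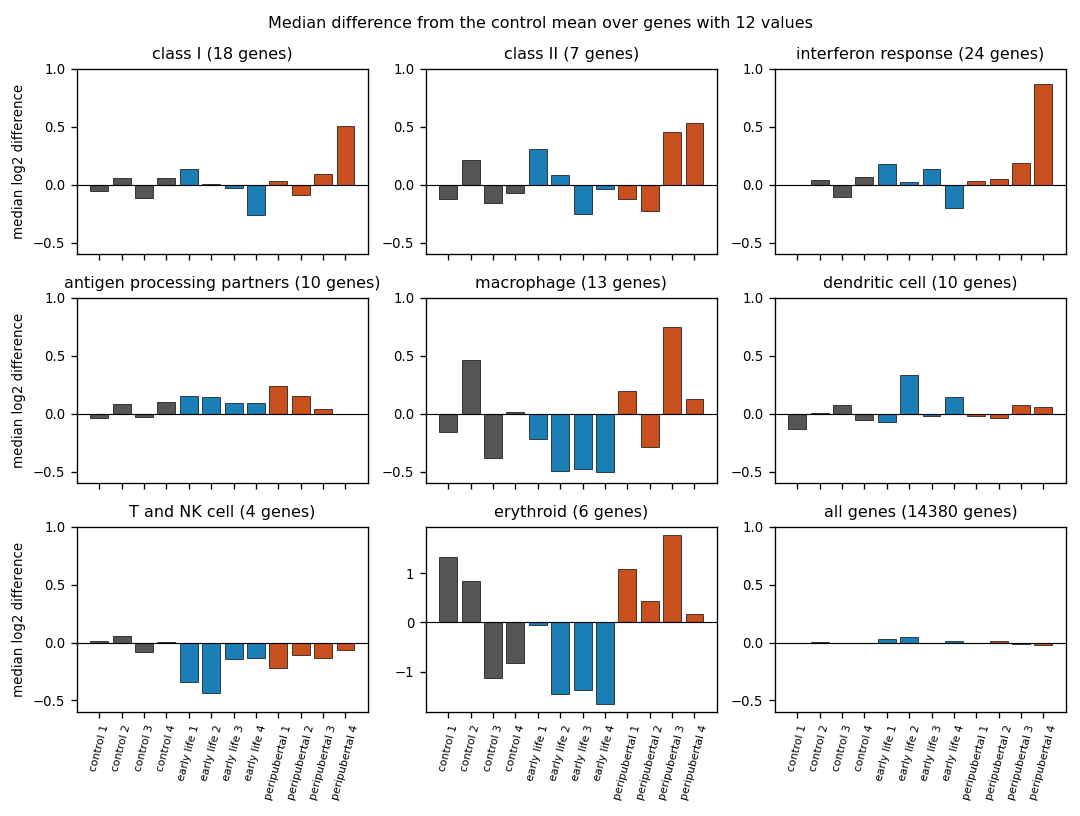
Median log2 difference from the control mean, for each sample (bars), over the genes of each list with values in all 12 samples; the erythroid panel has a wider axis. Peripubertal animal 4 is the highest bar for class I (0.51), class II (0.53) and interferon response (0.87), and animal 3 the highest for macrophage markers (0.75).

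Class I genes are close copies of each other, and a probe may read more than its named gene. Among the 67 member probes, 2 pairs of different genes agreed in at least 80% of an ungapped overlap of 45 or more bases: H2-Q2 with H2-Q10 (45 of 50 bases) and H2-K2 with H2-Q7 (49 of 57). A stretch of 30 bases of the closest pair, from probe bases 12 to 41 in H2-Q2 and 2 to 31 in H2-Q10, is shown with its 5 differences in capitals.
H2-Q2: agGcacatgtgacTcatcacccCAgatctC
H2-Q10: agAcacatgtgacCcatcacccAGgatctG
Probes of a gene also disagreed in places. H2-M2 has a bright probe, between 12.35 and 13.53, designed on an Ensembl transcript, and one designed on its RefSeq transcript that was well above background in 3 of 12 samples. H2-Q10 likewise has a second probe well above background in 1 sample. The values of H2-M2, H2-Q7 and H2-Q10, and the second probes of H2-K2 and H2-Q2, are therefore uncertain as to the gene. Member probes were compared only with each other and not with transcripts. Whether the other class I probes read only their named gene was not tested.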

How the data were processed

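The members and gene lists were chosen with earlier results of these data known. The deposited scanner files hold, per the file headers, each spot's intensity as mean signal with local background and as processed signal, written by Agilent Feature Extraction 11.0.1.1. The deposited value table holds log2 values, whose centring and normalization are not given in the sources used here. It served for the early life against peripubertal comparison as an alternative only.

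Mean signals were background-corrected with normexp (offset 50), normalized within arrays by loess and between arrays on average intensity (limma 3.58.1, R 4.3.3), with control spots and outlier-marked spots at weight 0. Outlier-marked spots were then left out, spots of a probe averaged, and probes kept if well above background in 4 of 12 channels (24605 of 39429). The brightest kept probe stood for a gene (19086 genes). In limma, diet group and dye were fixed and arrays entered as a random block (estimated correlation 0.342), with Benjamini-Hochberg adjustment over all genes and a threshold of 0.05. Values in every sample were given for a fixed set of members and for the 3 of smallest p per class and comparison. Other members were given by counts, with exceptions stated. In data simulated on 19086 genes with the real spread, 64%, 58% and 69% of genes changed by 1 log2 unit, and 93%, 90% and 89% of those changed by 2, were called for early life against control, peripubertal against control and early life against peripubertal. Only genes measured in all 12 samples were changed, so these shares do not cover members measured in fewer. In the same order, 16 of 173, 6 of 154 and 9 of 167 calls were false. The number of arrays limits the precision. Probe positions are mm9, as the scanner files give them, and promoters come from RefSeq (GRCm38.p6). Alternatives were other background, scaling and filter settings, other models and leaving out samples or arrays.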

Additional observations from a re-analysis of the deposited data

Results flagged for a closer look

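Of 110 groups of 4 values (each member with 4 values in a group, and the 2 class medians), 7 held a sample whose gap to its nearest neighbour exceeded Dixon's 95% limit for a group of that size, or 6.36%. Chance marks about 1 in 20 such groups. Tap1 in peripubertal animal 4 was at 8.99, with the other 3 between 7.74 and 7.90. H2-Ob in peripubertal animal 3 was at 7.22, with the others between 7.07 and 7.09. In the controls, H2-Aa (10.77), H2-M2 (12.87) and H2-Q6 (12.94) were highest in control animal 2, H2-T24 (7.82) in control animal 1, and B2m was lowest in control animal 4, at 13.36. The class I and class II medians of the samples passed no such limit in any group.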

How the results depend on the processing

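No member was called under the 12 alternatives that leave out no animal or array, of which one fits only the 8 samples compared, nor with the value table. Leaving out single animals, the members called numbered 0 to 1 (Tap2, without control animal 3) for early life against control and 0 otherwise. Leaving out arrays, they numbered 0 to 2 for early life against peripubertal (without early life animals 3 and 4) and 0 otherwise. The peripubertal against control medians of class I and class II ran from 0.03 to 0.26 and from 0.05 to 0.52 without single animals, and from -0.0030 to 0.41 and from -0.26 to 0.91 without arrays. Those of early life against peripubertal ran from -0.39 to -0.10 and from -0.74 to -0.19, and from -0.56 to -0.0016 and from -1.06 to 0.027. Median centring moved the class I median against control to 0.38 in the peripubertal group, where it moved the median of all genes to 0.14 (0.17 for early life against control). Requiring all 12 channels to be well above background moved the class II median of early life against peripubertal to -0.85, over fewer genes. The value table's column names reversed that comparison (0.30 for class I, 0.40 for class II). Keeping outlier-marked spots lowered the peripubertal difference of H2-Eb1 to 0.30, from 0.93, and that of H2-Ab1 to 0.51, from 1.05, where another probe became the brightest (0.30 on the same probe). The cause of the other shifts was not tested. Replicate numbers did not pair samples (correlations of same-numbered deviations from -0.18 to 0.13), and with the replicate block the class II median of the peripubertal group against control was 0.37, with 0 members called. Genes called over the whole array ran from 0 to 1924, 0 to 36 and 1 to 2376 in the 3 comparisons, against 18, 4 and 24.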
